A study of Mus musculus with 19 samples.

Results

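The 33 genes described here are homeostatic microglia genes, that is, genes known for high expression in the resident macrophages of the brain at rest. They were listed by name, with earlier results of these data known. Each was matched by its symbol to the deposited table of gene levels, where all 33 were found, on 1 entry each, among 60567 entries. Their mRNA levels were followed in astrocytes sorted from the mouse hippocampus and in the other cells of the same tissue. The question was how much RNA of microglial genes these sorted cells held, and how it differed between the study's groups.

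The study used APP transgenic mice, in which an App transgene, part mouse and part human, bears the Swedish mutations, and WT littermates, all male, on a C57BL/6J background and 9 months old. Adeno-associated vectors of serotype 9 with the astrocyte promoter gfaABC1D had been injected into CA1 at 3 to 4 months of age. WT-GFP and APP-GFP mice received the GFP vector alone, and APP-SOCS3 mice received it with a vector for SOCS3, the suppressor of cytokine signalling that inhibits the JAK2-STAT3 pathway, at the same total viral load. After papain dissociation and removal of myelin, GFP+ astrocytes were sorted by FACS from WT-GFP (7 samples), APP-GFP (4 samples) and APP-SOCS3 (5 samples) hippocampi, and GFP- cells from WT-GFP hippocampi (3 samples). The GFP- fraction is a mixture that takes in microglia, neurons, oligodendrocyte precursors and non-infected astrocytes. No GFP- cells of APP mice were among the samples, so the microglial level used as a reference below is that of WT mice. Both hippocampi of a mouse were sorted independently, and the study gives the numbers of GFP+ samples as mice.

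Microglia depend on signals of the receptor Csf1r to survive, and the transcription factors PU.1 (Spi1), Irf8 and Sall1 set and keep their identity. Their resting state is known by surface receptors that sense nucleotides, the chemokine fractalkine and lipids, and near amyloid plaques several of these receptors are known to decline while lysosomal and lipid genes rise.

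Reads counted on genes were 19331876 to 32621917 per sample. Genes with at least 1 read were 15575 to 26757 in GFP+ samples and 30807 to 31897 in GFP- samples. WT-GFP replicates 1, 2 and 3 and APP-GFP replicate 2 had a read on fewer than 20000 genes, and they held 20 of the 31 zeros among the 528 values of the 33 genes in GFP+ samples. Aqp4, the astrocyte water channel, was at 2076 to 7231 in GFP+ samples and at 331 to 941 in GFP- samples. Socs3 was at 13296 to 37750 in APP-SOCS3 samples, at 438 to 1639 in the other GFP+ samples and at 10320 to 17689 in GFP- cells, so the GFP+ samples followed their labels and the GFP- range overlapped that of APP-SOCS3 samples. Levels are read counts divided by the authors' size factor of each sample.

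GFP+ astrocytes held the 33 genes at a small part of their level in GFP- cells. The levels of the 33 genes were added up in each sample and divided by the mean of this sum in GFP- cells. The sum was 4.88 to 20.5% of the GFP- level in WT-GFP astrocytes, with a median of 14.5%. It was 7.07, 30.01, 35.0 and 10.3% in APP-GFP replicates 1 to 4, and 6.34, 6.61, 6.03, 4.17 and 3.77% in APP-SOCS3 replicates 1 to 5. APP-GFP astrocytes were split into 2 high samples above all others and 2 low samples within the WT-GFP range. APP-SOCS3 astrocytes lay close together, between 3.77 and 6.61%, below every WT-GFP sample but replicate 1. The GFP- samples were at 76.2, 90.6 and 133%. Taking each gene's own percentage and then the median over the 33 genes gave the same picture, with medians of 11.4% in WT-GFP, 19.3% in APP-GFP and 4.15% in APP-SOCS3 astrocytes. Since RNA was pooled from many cells, fewer cells of a type and less RNA per cell cannot be told apart, and neither can RNA carried over from microglia and RNA made by the astrocytes.

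**Figure D1:**
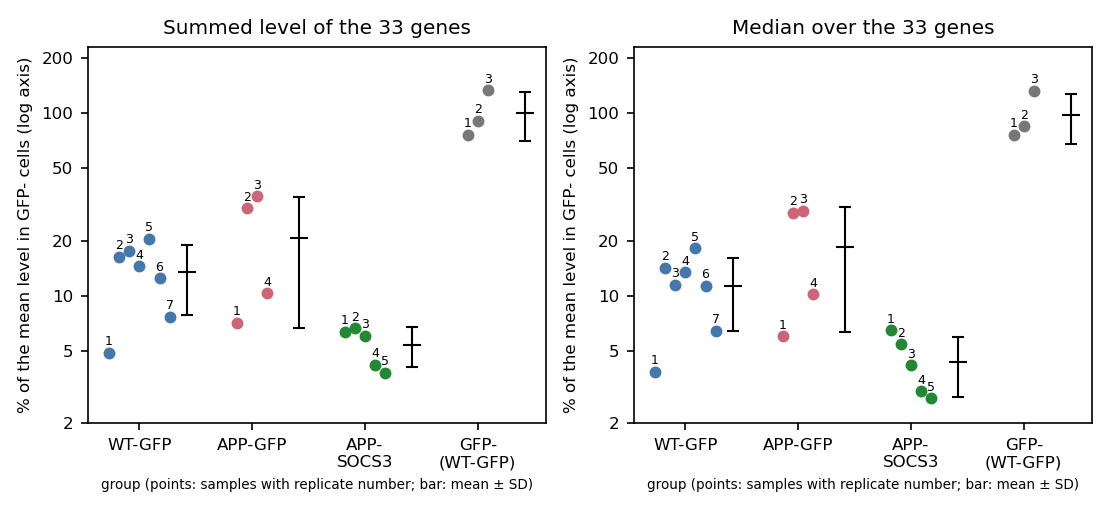
Summed level of the 33 genes (left) and median over the 33 genes of each gene's own level (right) in each sample, as a percentage of the mean in GFP- cells, on log axes. Points are samples with their replicate numbers, and bars show the mean ± SD of a group. APP-GFP replicates 2 and 3 lie at 30.01 and 35.0% in the left panel, and the 5 APP-SOCS3 samples between 3.77 and 6.61%.

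The plot of all genes in all samples shows that this order of samples was shared by most of the genes. Among the 16 GFP+ samples, the highest level was in APP-GFP replicate 3 for 19 genes and in APP-GFP replicate 2 for 8 genes. Both of these samples were above both APP-GFP replicates 1 and 4 for 27 of the 33 genes. On the linear scale the APP-SOCS3 mean was the lowest of the 3 GFP+ groups for all 33 genes, and the APP-GFP mean was the highest for 30. These counts describe genes measured in the same libraries, which are not independent of each other. They were not made over all genes. The high samples were named from the sum of these same genes, so the counts are no separate support.

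**Figure D2:**
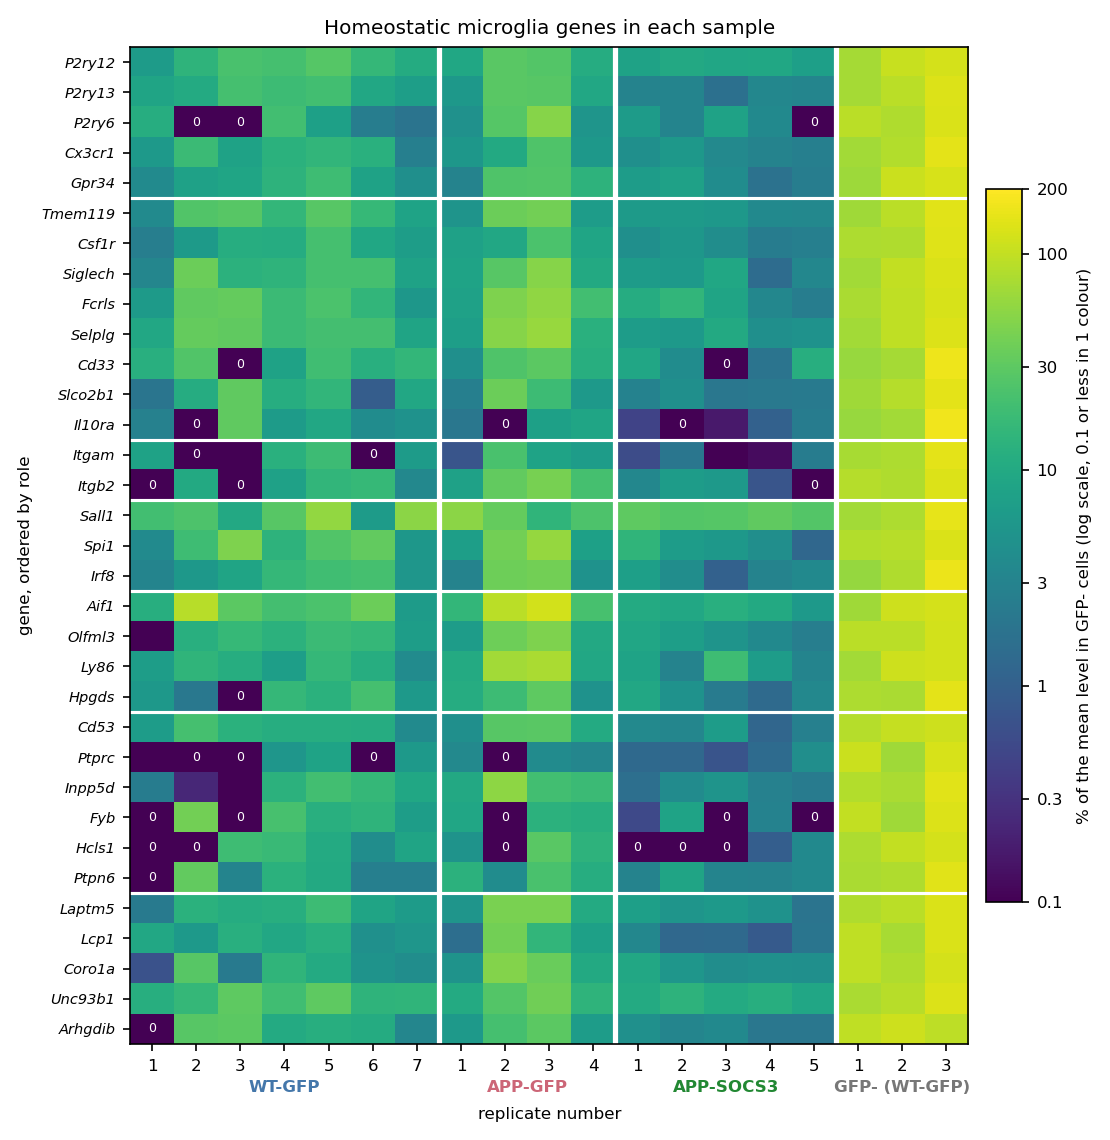
Level of each of the 33 genes (rows, grouped by role) in each of the 19 samples (columns), as a percentage of the gene's mean in GFP- cells, on a log colour scale that ends at 0.1%. A 0 marks a sample with no read. GFP- samples are the brightest columns, APP-GFP replicates 2 and 3 stand out among the GFP+ samples, and in the Sall1 row the APP-SOCS3 samples lie within the range of the other GFP+ samples.

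The first comparison asked how WT-GFP astrocytes differed from GFP- cells. All 33 genes were lower in WT-GFP astrocytes, by log2 fold changes of -7.69 to -2.07, with a median of -3.56. The median of all 26709 genes tested was -1.31, and the difference between both medians was -2.25. Each of the 33 was called, which here and below means a limma p not above 0.05 before adjustment, on log2(level + 1), with a change of 1.5-fold or more, against 33.5% of all genes tested that were called lower. After Benjamini-Hochberg adjustment 28 passed, against 24.5% of all genes that were lower with an adjusted p under 0.05. For 32 genes the ranges of both groups did not overlap, against 27.2% of all genes, and the exception was Aif1. On the linear scale, the sum of the 33 genes was at a median of 14.5% of the GFP- level in WT-GFP astrocytes. This is another measure than the median log2 fold change.

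The second comparison asked whether amyloid pathology changed these genes in GFP+ astrocytes. Against WT-GFP astrocytes, 1 of the 33 genes was called higher in APP-GFP astrocytes, Ly86, against 1.66% of all genes tested that were called higher, and none was called lower. Log2 fold changes were positive for 31 genes and ranged from -1.005 (Il10ra) to 3.46, with a median of 0.50 beside 0.09 for all genes tested. After adjustment 0 of the 33 genes passed by limma, edgeR or DESeq2, and 1 had an unadjusted limma p under 0.05. The APP-GFP samples spread widely around their mean. In all, 24 genes were higher in APP-GFP replicate 3, the sample with the largest sum, than in every WT-GFP sample. APP-GFP replicates 1 and 4 were below the WT-GFP median for 25 and 21 genes. Replicate 3 was picked by the sum of these same genes, and the shares of all genes in these orders were not counted. With samples weighted by their quality, the median log2 fold change of the 33 genes was -0.07 and 16 of them were positive, and their direction turned with that setting. The median was 0.10 with 21 positive genes without the 4 libraries with few genes, 0.29 with 20 positive without APP-GFP replicate 3 and 0.31 with 26 positive without WT-GFP replicate 1. Leaving out APP-GFP replicate 1 raised it to 1.07, and leaving out replicate 4 to 0.76.

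The third comparison asked what SOCS3 changed in APP astrocytes. In APP-SOCS3 astrocytes 25 of the 33 genes were called lower than in APP-GFP astrocytes, against 3.37% of all genes tested that were called lower, and none was called higher. Log2 fold changes were negative for 31 genes, with a median of -1.94 and a range of -4.00 to 0.32, while the median of all genes was 0.08. For 6 genes (P2ry13, Csf1r, Aif1, Itgb2, Inpp5d and Arhgdib) the ranges of both groups did not overlap, against 1.09% of all genes. After adjustment 0 of the 33 genes passed by limma and by edgeR and 14 by DESeq2, and 25 had an unadjusted limma p under 0.05. Of all 22844 genes tested, 1 passed after adjustment by limma, 0 by edgeR and 205 by DESeq2. Without APP-GFP replicate 3, which had the highest sum, 16 genes were called. Without APP-GFP replicate 2, which had a read on few genes, 22 were called. Of all genes, 5.34 and 5.52% were called in either direction in these 2 fits, against 5.7% with all samples.

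The fourth comparison set APP-SOCS3 astrocytes against WT-GFP astrocytes, without the samples of the APP-GFP group. In APP-SOCS3 astrocytes 16 of the 33 genes were called lower than in WT-GFP astrocytes, against 2.02% of all genes tested that were called lower, and none was called higher. Log2 fold changes were negative for 29 genes, with a median of -1.18 beside 0.19 for all genes. Ranges did not overlap for 2 genes, P2ry13 and Lcp1, against 0.279% of all genes. P2ry13 narrowly passed after adjustment by limma. It was itself the 1 gene of the 22958 tested (0.00436%) that was lower with an adjusted p under 0.05. None of the 33 passed in 17 of 25 other settings. Scaling samples to equal upper quartiles moved the median of all genes to 0.52 and left 5 genes called, with 6.84% of all genes called in either direction against 5.21% before, while the 33 genes stayed about as far below that median, at -1.35 against -1.37. Leaving out WT-GFP replicate 5 or APP-SOCS3 replicate 4 left 10 genes called, with 5.17 and 3.94% of all genes called. Leaving out the 3 WT-GFP samples with few genes gave 21, with 7.18% of all genes called. These comparisons share groups with each other, so their values are set side by side below for each gene and were not correlated.

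**Figure D3:**
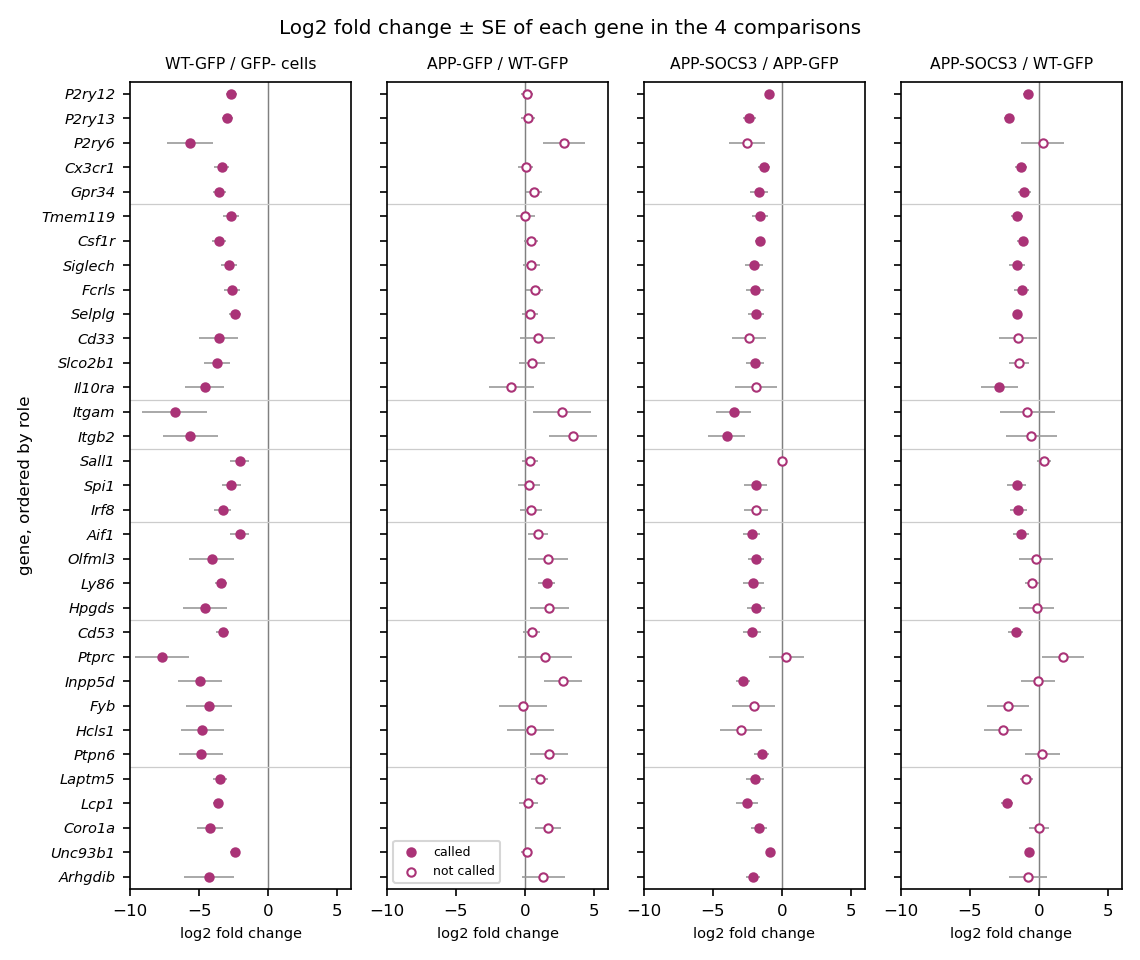
Log2 fold change ± SE (limma, log2(level + 1) scale) of each of the 33 genes, ordered by role, in the 4 comparisons. Filled points were called (p not above 0.05 before adjustment and a change of 1.5-fold or more). All points are filled in the first panel, 1 in the second, 25 in the third and 16 in the fourth.

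Among the receptors for nucleotides and chemokines, P2ry12 (chr3:59216271-59262832 on mm10), an ADP receptor that steers microglial processes toward injury, was at 12374, 18349 and 20723 in the GFP- samples. The lowest, median and highest WT-GFP levels were 1115, 2712 and 4570, and WT-GFP levels are given in this way for the other genes. APP-GFP replicates 1 to 4 were at 1571, 4914, 4545 and 1900 and APP-SOCS3 replicates 1 to 5 at 1361, 1705, 1549, 1604 and 1260. All GFP+ samples lay below all GFP- samples, and the APP-SOCS3 values overlapped the low end of both other GFP+ groups. The log2 fold change was -2.67 ± 0.39 (SE) in WT-GFP astrocytes against GFP- cells, 0.12 ± 0.41 in APP-GFP against WT-GFP, -0.94 ± 0.33 in APP-SOCS3 against APP-GFP and -0.83 ± 0.30 in APP-SOCS3 against WT-GFP.

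P2ry13 (chr3:59207896-59210883), the neighbouring gene and another ADP receptor, was at 5363, 6769 and 9955 in GFP- samples, at 515, 774 and 1544 as the lowest, median and highest in WT-GFP, at 421, 2091, 2056 and 697 in APP-GFP and at 219, 227, 122, 245 and 231 in APP-SOCS3 astrocytes. The highest APP-SOCS3 sample was below the lowest sample of both other GFP+ groups. The difference from APP-GFP was -2.38 ± 0.48 (log2, SE; unadjusted p = 0.000390, adjusted p = 0.363 by limma), and that from WT-GFP was -2.17 ± 0.33 (unadjusted p = 1.33e-05, adjusted p = 0.0498). Exact permutation tests, 2-sided, gave p = 0.0159 and p = 0.00253, the smallest values that these group sizes can give. Of their GFP- means, APP-SOCS3 astrocytes held 8.72% ± 1.06 (SD) of P2ry12 and 2.84% ± 0.671 of P2ry13, while WT-GFP astrocytes held 16.8% ± 7.07 and 13.6% ± 6.02. Both genes lie within Med12l, which is read from the other strand, and since the use of strand in counting is not stated, reads of Med12l cannot be told apart from theirs. In all, 14 of the 33 genes overlap a gene on the other strand.

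The fractalkine receptor Cx3cr1 was at 4924, 5985 and 10416 in GFP- samples, 192, 897 and 1260 in WT-GFP, 392, 715, 1763 and 409 in APP-GFP and 317, 404, 253, 215 and 186 in APP-SOCS3 astrocytes, and the last group overlapped the others at their low ends. It was called lower in APP-SOCS3 astrocytes, with log2 fold changes of -1.34 ± 0.44 against APP-GFP and -1.30 ± 0.43 against WT-GFP. Gpr34, a receptor for lysophosphatidylserine, was at 240, 2000, 2043 and 1082 in APP-GFP and 535, 623, 321, 139 and 200 in APP-SOCS3 astrocytes, and its log2 fold changes were -1.70 ± 0.65 and -1.06 ± 0.46. These calls were lost in 8 of 23 and 11 of 26 alternative settings, in which leaving out single samples and the adjusted p are counted. P2ry6, a UDP receptor linked to phagocytosis, was called in neither comparison of APP-SOCS3 astrocytes. It had no read in WT-GFP replicates 2 and 3 and APP-SOCS3 replicate 5, and 247 and 455 in APP-GFP replicates 2 and 3, and its log2 fold changes depend on the pseudocount.

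Among the other surface receptors, Csf1r, the receptor for CSF1 and IL-34, was at 24745, 25447 and 43646 in GFP- samples, 798, 2924 and 6595 as the lowest, median and highest in WT-GFP, 2428, 3014, 7351 and 2708 in APP-GFP and 1369, 1743, 1299, 767 and 825 in APP-SOCS3 astrocytes. APP-SOCS3 values lay below all APP-GFP values but overlapped those of WT-GFP, where replicate 1 was the lowest. The log2 fold change was -1.60 ± 0.35 against APP-GFP (unadjusted p = 0.000754, adjusted p = 0.466 by limma; exact permutation p = 0.0159) and -1.18 ± 0.41 against WT-GFP (adjusted p = 0.69). Over the 16 GFP+ samples Csf1r was at 2.45 to 23.5% of its GFP- mean.

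Tmem119, a membrane protein used to tell microglia from other macrophages, was at 9286, 12470 and 19266 in GFP- samples and at 527, 2241 and 3801 in WT-GFP. APP-GFP replicates 1 and 4 were at 699 and 900 and replicates 2 and 3 at 5031 and 5420. The high pair exceeded every WT-GFP sample and the low pair lay near APP-SOCS3 astrocytes, which were at 860, 870, 796, 512 and 469. The mean difference between APP-GFP and WT-GFP was 0.01 ± 0.67 on the log2 scale, while APP-SOCS3 differed from APP-GFP by -1.58 ± 0.59 (a call lost in 5 of 23 alternatives) and from WT-GFP by -1.58 ± 0.45.

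Selplg, the P-selectin ligand, had the same high and low APP-GFP samples, at 1180, 8387, 10296 and 2103 in APP-GFP and 1137, 1016, 1686, 729 and 803 in APP-SOCS3 astrocytes. Its log2 fold change against WT-GFP was -1.56 ± 0.35 (unadjusted p = 0.000538, adjusted p = 0.206 by limma). Siglech, a sialic acid-binding lectin, and Fcrls, a member of the Fc receptor-like family, were both called lower in APP-SOCS3 astrocytes against either group, with log2 fold changes of -2.03 and -1.94 against APP-GFP and -1.58 and -1.27 against WT-GFP. The Fcrls call against WT-GFP was lost in 10 of 26 alternatives. Slco2b1, an organic anion transporter, was called against APP-GFP alone, at 163, 2209, 1122 and 358 in APP-GFP and 174, 271, 125, 132 and 134 in APP-SOCS3 astrocytes. Il10ra, the chain of the interleukin-10 receptor that binds the ligand, was called against WT-GFP alone, a call lost in 15 of 26 alternatives, and its levels were low, at 24.4, 0, 89 and 105 in APP-GFP and 5.52, 0, 2.00, 12.7 and 29 in APP-SOCS3 astrocytes. Cd33, another sialic acid-binding lectin, was not called in a comparison between GFP+ groups, with values of 30.8, 170, 202 and 81.9 in APP-GFP and 62.9, 27.9, 0, 12.7 and 81.7 in APP-SOCS3 astrocytes.

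The integrin chains Itgam (CD11b) and Itgb2 (CD18) pair to form complement receptor 3. Itgb2 was at 2064, 1956 and 3166 in GFP- samples, 185, 782, 997 and 507 in APP-GFP and 80.6, 158, 148, 17.6 and 0 in APP-SOCS3 astrocytes, and the last 2 groups did not overlap. The log2 fold change between them was -4.00 ± 1.34 (unadjusted p = 0.0122, adjusted p = 0.646 by limma). WT-GFP replicates 1 and 3 had no read of Itgb2 and the others were at up to 386, and against WT-GFP neither APP-GFP (3.46 ± 1.73) nor APP-SOCS3 (-0.55 ± 1.84) passed the call. Itgam was at 35.3, 1073, 386 and 314 in APP-GFP and 27.6, 93, 2.00, 5.88 and 116 in APP-SOCS3 astrocytes, with an overlap through the low APP-GFP replicate 1, and its log2 fold change was -3.51 ± 1.26.

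Among the transcription factors, Spi1, which encodes PU.1, was at 1432, 1507 and 2216 in GFP- samples, 65.3, 321 and 797 in WT-GFP, 123, 682, 1045 and 128 in APP-GFP and 245, 113, 100, 74.5 and 22 in APP-SOCS3 astrocytes. Its log2 fold change in APP-SOCS3 astrocytes was -1.91 ± 0.81 against APP-GFP and -1.62 ± 0.69 against WT-GFP, and both were called. These calls were lost in 10 of 23 and 9 of 26 alternatives. Irf8, which acts together with PU.1, was at 51.6, 643, 685 and 82.8 in APP-GFP and 125, 71.6, 18, 51 and 63.3 in APP-SOCS3 astrocytes. It passed the call against WT-GFP (-1.48 ± 0.61, lost in 8 of 26 alternatives) and missed it against APP-GFP (-1.89 ± 0.87, unadjusted p = 0.0515 by limma).

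Sall1 (chr8:89027246-89044162), a zinc-finger factor that keeps the identity of microglia, did not share this order of samples. It was at 1221, 1381 and 2654 in GFP- samples, at 114, 413 and 1033 as the lowest, median and highest in WT-GFP, at 937, 584, 252 and 421 in APP-GFP and at 529, 464, 477, 551 and 457 in APP-SOCS3 astrocytes. APP-SOCS3 values lay within the range of both other groups, and APP-GFP replicate 3, the sample with the largest sum, was the lowest of its group. The log2 fold change in APP-SOCS3 astrocytes was 0.01 ± 0.33 against APP-GFP and 0.34 ± 0.49 against WT-GFP. In percent of its GFP- mean, Sall1 was at 28.6% ± 20.4 (SD) in WT-GFP, 31.3% ± 16.7 in APP-GFP and 28.3% ± 2.38 in APP-SOCS3 astrocytes. By this percentage it was the highest of the 33 genes in every APP-SOCS3 sample. The same held in WT-GFP replicates 1, 4, 5 and 7 and in APP-GFP replicates 1 and 4.

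**Figure D4:**
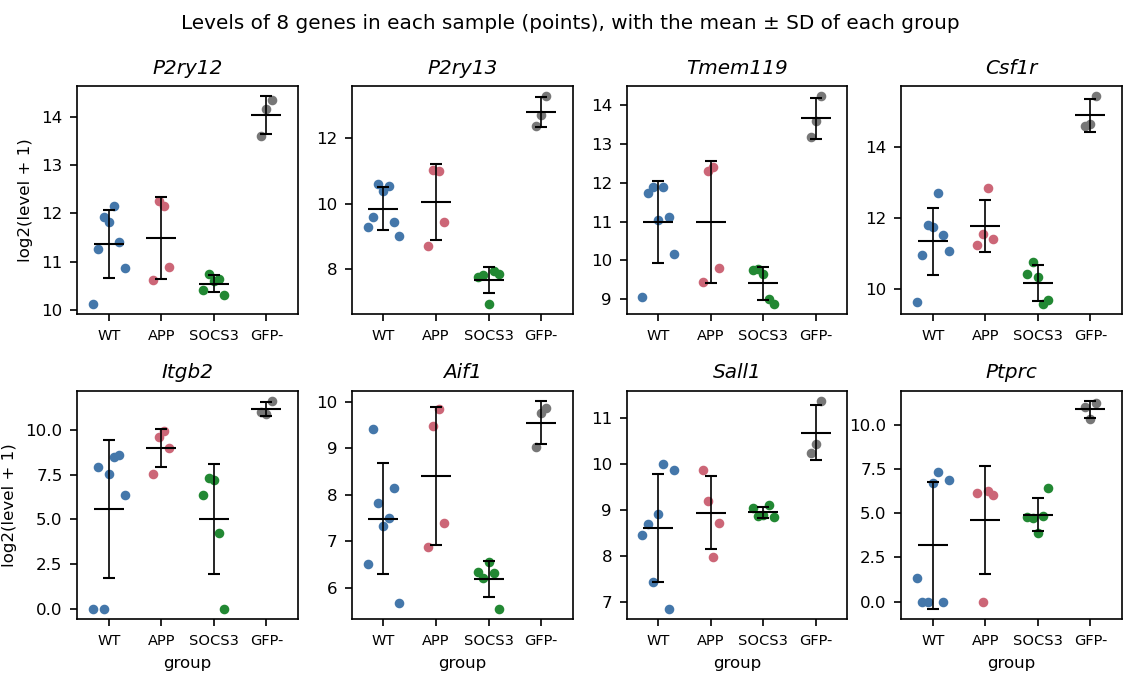
Levels of 8 of the 33 genes on the log2(level + 1) scale in each sample, with the mean ± SD of each group (WT, WT-GFP; APP, APP-GFP; SOCS3, APP-SOCS3; GFP-, GFP- cells of WT-GFP mice). The APP-SOCS3 points lie below all APP-GFP points for P2ry13, Csf1r, Itgb2 and Aif1, and within them for Sall1.

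Among the secreted, enzyme and calcium-binding products, Aif1 (Iba1), an actin-binding protein used to stain microglia, was at 518, 861 and 935 in GFP- samples and 49.6, 181 and 675 in WT-GFP. APP-GFP replicates 2 and 3, at 709 and 922, reached the GFP- range, as did WT-GFP replicate 2 at 675, and APP-GFP replicates 1 and 4 were at 117 and 167. APP-SOCS3 replicates were at 79.5, 72.5, 93, 78.4 and 45.7, below every APP-GFP sample. The log2 fold change was -2.21 ± 0.62 against APP-GFP (unadjusted p = 0.00438, adjusted p = 0.577 by limma; exact permutation p = 0.0159) and -1.29 ± 0.57 against WT-GFP. The call against WT-GFP was lost in 12 of 26 alternatives and that against APP-GFP in 1 of 23.

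Ly86, which encodes the MD-1 partner of a Toll-like receptor relative, was the gene called higher in APP-GFP astrocytes. It was at 102, 298 and 416 as the lowest, median and highest in WT-GFP and at 270, 1857, 1984 and 248 in APP-GFP, where replicates 2 and 3 came into the GFP- range of 1837 to 3086 and replicates 1 and 4 stayed within the WT-GFP range. The log2 fold change was 1.55 ± 0.64 (unadjusted p = 0.0311, adjusted p = 0.999 by limma), and the exact permutation test gave p = 0.115. The call was lost in 7 of 25 alternatives, among them when WT-GFP replicate 1 or 7 or APP-GFP replicate 2 or 3 was left out. In APP-SOCS3 astrocytes it was at 215, 79.1, 495, 177 and 81.7, with log2 fold changes of -2.09 ± 0.76 against APP-GFP (called, and lost in 5 of 23 alternatives) and -0.54 ± 0.50 against WT-GFP. Olfml3, a secreted glycoprotein, was at 614, 3382, 4278 and 891 in APP-GFP and 817, 655, 474, 337 and 234 in APP-SOCS3 astrocytes, and Hpgds, a prostaglandin D2 synthase, at 239, 398, 660 and 104 and 206, 104, 51, 30.4 and 74.7. Both were called lower against APP-GFP, with log2 fold changes of -1.87 and -1.89, and neither against WT-GFP.

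Among the leukocyte signalling proteins, Ptprc (CD45), the tyrosine phosphatase of all leukocytes, was at 2100, 1310 and 2428 in GFP- samples but at 70.6, 0, 75.2 and 64.5 in APP-GFP and 26.5, 25.1, 14, 27.4 and 84.4 in APP-SOCS3 astrocytes, and 3 WT-GFP samples had no read. It stayed at 0 to 8.22% of its GFP- mean in the 16 GFP+ samples, and the APP-GFP and APP-SOCS3 ranges overlapped (0.32 ± 1.30 on the log2 scale). The sign of this change ran against the means of Ptprc, which were 52.6 in APP-GFP and 35.5 in APP-SOCS3 astrocytes. APP-GFP replicate 2, at 0, had a read on few genes. Inpp5d (SHIP1), a lipid phosphatase that restrains receptor signalling, did not overlap between APP-GFP at 288, 1588, 584 and 526 and APP-SOCS3 at 46.4, 115, 151, 81.4 and 68.6. Its log2 fold change was -2.83 ± 0.51 (unadjusted p = 0.000176, adjusted p = 0.252 by limma), while against WT-GFP, where replicates 2 and 3 were at 6.81 and 2.35, it was -0.08 ± 1.23. The tetraspanin Cd53 was called lower against both groups (-2.16 and -1.70) and the phosphatase Ptpn6 (SHP-1) against APP-GFP (-1.47, lost in 6 of 23 alternatives). The adaptor Fyb and the cortactin relative Hcls1 were not called between GFP+ groups, with 5 and 6 of 16 GFP+ samples at no read.

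All 5 leukocyte cytoskeleton and lysosome-endosome genes were called lower in APP-SOCS3 than in APP-GFP astrocytes, against 3.37% of all genes tested. Their log2 fold changes were -2.53 to -0.85. Lcp1 (L-plastin), an actin bundler of leukocytes, was at 144, 297 and 378 as the lowest, median and highest in WT-GFP, 49.8, 1268, 473 and 241 in APP-GFP and 106, 40.9, 42, 27.4 and 60.6 in APP-SOCS3 astrocytes. Its APP-SOCS3 values lay below all WT-GFP values (-2.30 ± 0.44, unadjusted p = 0.000124, adjusted p = 0.105 by limma) but overlapped those of APP-GFP through replicate 1. Laptm5, a lysosomal membrane protein, was at 635, 5334, 5286 and 1261 in APP-GFP and 877, 642, 733, 576 and 225 in APP-SOCS3 astrocytes (-1.97 ± 0.63). Unc93b1, which carries nucleic acid-sensing Toll-like receptors to endosomes, was at 750, 1884, 2762 and 1009 in APP-GFP and 736, 972, 755, 833 and 648 in APP-SOCS3 astrocytes and was called lower, with log2 fold changes of -0.85 against APP-GFP, lost in 11 of 23 alternatives, and -0.74 against WT-GFP, lost in 3 of 26. Coro1a, an actin regulator, and Arhgdib, a GTPase regulator of blood cells, were called lower against APP-GFP, with log2 fold changes of -1.67 and -2.09, and were not called against WT-GFP. The Coro1a call was lost in 7 of 23 alternatives.

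The genes were not held in equal proportion. Each gene's percentage of its GFP- mean was compared with the median gene of the same sample. Aif1 and Selplg were above the median gene in 16 of 16 GFP+ samples, Unc93b1 in 15, P2ry12 and Fcrls in 14 each, and Tmem119, Siglech and Sall1 in 13 each. Ptprc and Il10ra were above it in 1 sample each and Itgam and Arhgdib in 2 each. In APP-GFP replicate 3 the percentages ran from 3.86% for Ptprc to 120% for Aif1, and the lower and upper quartiles over the genes were 22.7 and 43.5%. In APP-SOCS3 replicate 5 the quartiles were 2.35 and 3.72%, while Sall1 was at 26.1% and Unc93b1 at 9.05%. The GFP- reference is WT and mixed, so a percentage does not give a share of microglial cells.

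Because 2 of the transcription factors among these genes are known to bind promoters of myeloid genes, the promoters were searched for the letters of a PU.1 motif. RefSeq windows (GRCm38.p6) held the 250 bases before the start of 24 of the 33 genes, in 34 windows. The 8 letters GAGGAAGT, on either strand, were in the windows of 2 of the 24 genes, Inpp5d and Hpgds, and in 2.79% of all 27025 genes. The 6 letters GAGGAA, which lie inside the longer motif, were in at least 1 window of 13 of the 24 genes (54.2%) and of 25.9% of all genes, or in 38.2% of the 34 windows and 23.3% of all windows. The composite element of PU.1 with an interferon regulatory factor (EICE), searched on both strands, was in 0 of the 34 windows and in 2.3% of all windows. The windows shown are the 2 with the longer motif, those of the neighbours P2ry12 and P2ry13, and the first of 3 of Sall1, a gene not called lower in APP-SOCS3 astrocytes. They are the minus strand at chr3:59210883-59211132 (P2ry13), chr3:59262986-59263235 (P2ry12), chr6:65144731-65144980 (Hpgds) and chr8:89044163-89044412 (Sall1), and the plus strand at chr1:87620062-87620311 (Inpp5d). Each is written toward the gene and ends at the base before its RefSeq start, with GAGGAA in capitals where it occurs. The RefSeq starts can differ from the authors' gene positions. The Hpgds window overlaps the authors' gene, which ends at 65144908, and the P2ry12 window begins beyond the authors' gene end at 59262832.
Inpp5d: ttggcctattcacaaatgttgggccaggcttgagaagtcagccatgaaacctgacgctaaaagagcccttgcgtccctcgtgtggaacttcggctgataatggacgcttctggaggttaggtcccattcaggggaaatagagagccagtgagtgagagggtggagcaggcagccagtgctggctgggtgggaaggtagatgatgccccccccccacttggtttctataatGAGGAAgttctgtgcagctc
Hpgds: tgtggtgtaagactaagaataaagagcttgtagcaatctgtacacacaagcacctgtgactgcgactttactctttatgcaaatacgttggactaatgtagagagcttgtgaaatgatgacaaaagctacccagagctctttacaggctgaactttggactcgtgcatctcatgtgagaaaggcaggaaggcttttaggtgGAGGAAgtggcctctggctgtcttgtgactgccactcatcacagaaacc
P2ry13: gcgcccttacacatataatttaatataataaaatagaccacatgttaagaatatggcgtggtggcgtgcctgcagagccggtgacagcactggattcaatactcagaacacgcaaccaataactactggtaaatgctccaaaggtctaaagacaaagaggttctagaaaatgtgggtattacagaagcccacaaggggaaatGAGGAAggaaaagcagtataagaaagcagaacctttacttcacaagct
P2ry12: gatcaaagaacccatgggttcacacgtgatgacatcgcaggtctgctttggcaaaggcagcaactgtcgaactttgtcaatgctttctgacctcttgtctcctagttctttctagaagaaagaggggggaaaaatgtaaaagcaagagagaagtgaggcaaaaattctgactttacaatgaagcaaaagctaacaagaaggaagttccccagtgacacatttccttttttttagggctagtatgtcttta
Sall1: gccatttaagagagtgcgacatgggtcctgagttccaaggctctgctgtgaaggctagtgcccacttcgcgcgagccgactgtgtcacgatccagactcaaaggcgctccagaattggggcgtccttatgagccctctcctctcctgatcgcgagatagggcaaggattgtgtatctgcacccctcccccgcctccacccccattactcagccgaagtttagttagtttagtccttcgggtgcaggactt
The motif ended 15 bases before the RefSeq start in Inpp5d, 44 in Hpgds and 43 in P2ry13, and it was absent from the windows of P2ry12 and Sall1. A match of letters is a description of the window and not a binding site, and a window without one says nothing about the factor.

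Genes of other cells were also lower in APP-SOCS3 than in APP-GFP astrocytes. Each count of genes called lower in this comparison stands beside 3.37% of all genes tested. The 23 further microglial genes, among them the complement gene C1qa, were called lower for 14 of the 22 tested, with a median log2 fold change of -2.09. Their sum was 15176, 75091, 95132 and 24753 in APP-GFP replicates 1 to 4, between 10123 and 40034 for WT-GFP and between 7221 and 15558 for APP-SOCS3, and APP-GFP replicates 2 and 3 were again the high samples. Endothelial genes were called lower for 11 of 12 (median -2.69), with a sum between 8818 and 37528 for WT-GFP, 12861 and 38302 for APP-GFP and 7263 and 11513 for APP-SOCS3, against 140188 to 225672 in GFP- cells. Mural genes were called lower for 5 of 9, and 8 had a negative log2 fold change (median -2.37). Perivascular macrophage genes were called for 6 of the 8 tested, with 7 negative (median -3.03), oligodendrocyte precursor genes for 3 of 6, with 5 negative (median -2.17), and neuronal genes for 3 of 10, with 10 negative (median -1.07). The median of the 33 genes was -1.94, and differences between lists were not tested. Mural sums were 3416 to 34343, 4170 to 20974 and 2300 to 3978, those of perivascular macrophage genes 12.9 to 1087, 364 to 1212 and 0.879 to 287, those of oligodendrocyte precursor genes 682 to 2186, 776 to 1837 and 218 to 1320, and those of neuronal genes 413 to 1188, 536 to 1195 and 115 to 1030, each for WT-GFP, then APP-GFP, then APP-SOCS3. Oligodendrocyte genes were called lower for 1 of the 7 tested (Mag) and astrocyte genes for 1 of 12 (Gfap, with means of 16902 in APP-GFP and 7791 in APP-SOCS3 astrocytes), with medians of -0.47 and 0.06, and both genes are named after their values were seen. Aqp4 was not called, at 2986 to 5411 without SOCS3 and 3803 to 6450 with it. Oligodendrocyte sums were 4961 to 7349, 6324 to 19306 and 4135 to 6641 in the same order of groups. Of the defining markers, Cldn5 (endothelial), Pdgfrb (mural) and Snap25 (neuronal) were above 0 in every GFP+ sample. Pdgfrb had means of 1347 for WT-GFP, 1299.6 for APP-GFP and 1360 for APP-SOCS3 and was not called, unlike 5 other mural genes. Mrc1 (perivascular macrophage) had no read in WT-GFP replicates 1, 2, 3 and 7 and APP-SOCS3 replicates 1, 3, 4 and 5, and Pdgfra (precursor) none in WT-GFP replicates 2, 3 and 6 and APP-SOCS3 replicates 1 and 4. Against WT-GFP astrocytes, 8 of 12 endothelial, 5 of 9 mural and 9 of 20 further microglial genes tested were called lower. Their medians were -2.37, -2.12 and -1.12, beside -1.18 for the 33 genes, and 2.02% of all genes were called lower. In the same comparison 2 of 6 oligodendrocyte precursor, 1 of 6 oligodendrocyte and 1 of 12 astrocyte genes were called lower. Of 8 perivascular macrophage and 10 neuronal genes tested, none was. The part of these other cells in the difference of the 33 genes was not tested.

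**Figure D5:**
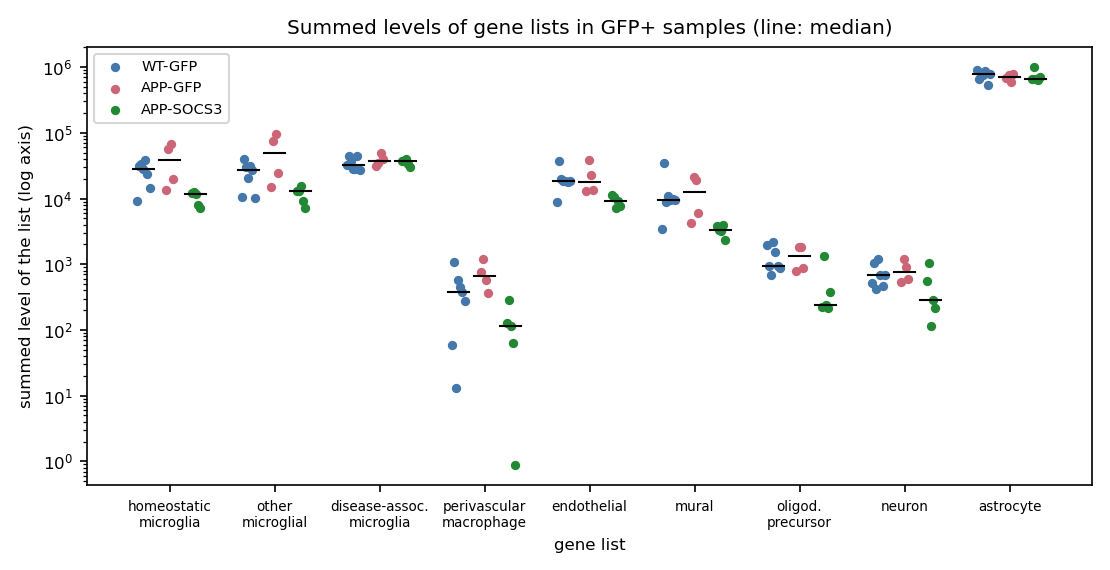
Summed level (log axis) of the 33 homeostatic microglia genes and of 8 other gene lists in the 16 GFP+ samples, with lines at the group medians. APP-SOCS3 medians are the lowest of the 3 groups for every list shown but that of disease-associated microglia, where WT-GFP has the lowest.

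Markers of blood-borne cells had few reads in GFP+ samples. Ccr2, the chemokine receptor of monocytes, had no read in any APP-GFP or APP-SOCS3 sample and was at 97.5 to 266 in GFP- cells and at most 24.6 among WT-GFP samples. The 8 monocyte and neutrophil genes summed to at most 113 in any GFP+ sample and to 2132 or more in each GFP- sample. The lymphocyte gene Cd3e was at 0 to 9.00 in GFP+ samples and 38.0 to 67.5 in GFP- cells. The 9 lymphocyte genes summed to at most 31.5 in GFP+ samples, or 4.18% of the GFP- mean, and to 573 to 879 in GFP- cells.

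Genes of disease-associated microglia are known to rise near amyloid plaques. Of 12 such genes 6 were called higher in APP-GFP than in WT-GFP astrocytes, 1 of them with an adjusted p under 0.05 by limma, beside 1 of the 33 homeostatic genes and 1.66% of all genes. In APP-SOCS3 against APP-GFP astrocytes 6 of the 12 were called lower and 10 were negative (median -2.34), against 3.37% of all genes called lower. The difference between both lists was not tested. Cst7, a cystatin, was at 544, 2401, 4526 and 905 in APP-GFP replicates 1 to 4 and at 238, 388, 694, 229 and 43.9 in APP-SOCS3 replicates 1 to 5, while 6 of 7 WT-GFP samples had no read and GFP- cells of WT mice were at 42.5 to 119. The APP-GFP replicates 1 and 4, in which most of the 33 genes were below the WT-GFP median, held more Cst7 than every GFP- sample of WT mice. The 12 genes include some that astrocytes express, and the sum of the list lay between 26876 and 44997 for WT-GFP, 31361 and 49470 for APP-GFP and 30255 and 40100 for APP-SOCS3.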

How the data were processed

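RNAseq levels of all 19 samples were used. The authors amplified RNA with a low-input kit, mapped reads to mm10 with STAR 2.4.0 and counted them on constitutive regions of genes. The deposited signal is the read count per gene and sample after division by a DESeq2 size factor. Use of strand in counting is not given in the sources used here.

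All values above 0 (100%) were whole reads within 0.01 once rescaled, so reads could be recovered. Groups followed the labels. Each comparison was fitted by limma 3.58.1 in R 4.3.3 (trend option) to log2(level + 1) of its own samples, over genes whose mean reached 10 in one of them, and the thresholds for a call (p 0.05, 1.5-fold) were the study's. The pseudocount understates the change of genes low in all samples, while single samples at 0 can enlarge a change or turn its sign against the ratio of means. The fit was also run on simulated reads with the same dispersion for every gene, which is simpler than these data. No result given here rests on that run. Permutation tests were exact and 2-sided. Alternatives were other pseudocounts, filters, scalings and thresholds, edgeR 4.0.16 and DESeq2 1.42.0 on recovered reads, sample weights, a replicate block and leaving out each sample. Leaving out the 4 libraries with few genes was chosen after seeing the data.

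The 33 genes and 11 other gene lists were chosen with earlier results of these data known. All 33 were to be named by role, and the other lists given by counts, sums and a defining marker. Positions are the authors', and 33 of 33 overlapped their gene in GENCODE M21. Promoters are RefSeq windows on GRCm38.p6. A second transgene of the APP mice is not reported here.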

Additional observations from a re-analysis of the deposited data

Results flagged for a closer look

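For each gene and group, the gap between the highest or lowest sample and its neighbour was divided by the range of the group on the log2(level + 1) scale. Of 102 groups of 4 to 7 samples, for the 33 genes and their sum, 11 had a sample apart from the others by Dixon's 95% value, where chance alone marks about 1 in 20 groups. Of these 11 cases, some of them in the same sample, 8 were in the 4 libraries with a read on fewer than 20000 genes. The groups share libraries between genes, so they are not independent of each other. APP-GFP replicate 2 had no read of Ptprc (others 64.5 to 75.2) and of Fyb (others 36.2 to 54.4), with each value at 0. WT-GFP replicate 3 was at 0 for Hpgds (others 45.4 to 457) and Cd33 (others 56.1 to 177), and WT-GFP replicate 2 was at 0 for Il10ra (others 33.4 to 378). WT-GFP replicate 1 was at 0 for Arhgdib (others 124 to 1128) and Ptpn6 (others 60.9 to 737) and at 3.04 for Olfml3 (others 634 to 1615). In APP-SOCS3 astrocytes P2ry13 was at 122 in replicate 3 (others 219 to 245), P2ry6 at 0 in replicate 5 (others 27.9 to 72.0) and Ptpn6 at 192 in replicate 2 (others 67.3 to 84.4). No sample stood apart in the summed level of the 33 genes.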

How the results depend on the processing

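In WT-GFP astrocytes against GFP- cells 30 to 33 genes were called under 13 other settings and 25 to 33 when a sample was left out, all lower. Of all genes, 32.2 to 52.7% and 33.4 to 43.7% were called in either direction in these fits. In APP-GFP against WT-GFP astrocytes, where 1 gene was called, 3 were called with a pseudocount of 10 or with all 19 samples in the fit, 2 by edgeR and by DESeq2, 0 with sample weights or adjusted p, and 0 to 4 when a sample was left out (all genes called were 2.23% with a pseudocount of 10, 4.31% with all samples, 2.87% by edgeR, 2.31% by DESeq2, 4.79% with weights and 1.71 to 2.91% with a sample left out, against 2.23% before). In APP-SOCS3 against APP-GFP astrocytes 20 to 29 genes were called under 13 other settings, 0 with adjusted p, and 16 to 26 when a sample was left out, the fewest without APP-GFP replicate 3. Of all genes, 4.42 to 6.3% were called under the other settings and 4.62 to 8.02% with a sample left out. In APP-SOCS3 against WT-GFP astrocytes 5 genes were called with equal upper quartiles, 1 with adjusted p and 24 with sample weights (6.84% of all genes with upper quartiles and 11.3% with weights, against 5.21% before), and 10 to 20 when a sample was left out (3.94 to 6.25% of all genes). No called gene changed direction under any alternative. The median percentage over genes in APP-SOCS3 astrocytes was 4.15% where the sum gave 6.03%. The causes were not tested.

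With a replicate block the 4 comparisons called 33, 6, 21 and 14 genes, and 52.7, 5.69, 4.96 and 6.68% of all genes, against 42.8, 2.23, 5.7 and 5.21% without it. Samples with the same number did not deviate together in all pairs (correlations of -0.0155 to 0.0188, -0.029 to 0.154, 0.00579 to 0.0886 and -0.0761 to 0.0949), so the numbers were not taken as pairs. Each sample correlated best with its own number for 2 of 3, 1 of 4, 3 of 4 and 0 of 5 pairs.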
